A study of Gallus gallus with 6 samples.

Results

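OTOP2 and OTOP3 are otopetrin genes that lie side by side on chicken chromosome 18, and their transcripts were followed in the uteri of hens in and out of lay. The 2 members were found by their symbols in the authors' table of differentially expressed genes (DEGs), which names 516 of its 616 genes, and were then followed by Ensembl identifier among all 19152 genes of the count table. Because that table lists only genes that the authors had called between the same hens, both genes were selected on this contrast. The differences between layers and non-layers given below therefore describe the members and are not independent evidence that they differ.

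The uteri came from Hy-line hens, with 1 poly-A library per hen. The 3 layers were 35 weeks old and carried an egg at the stage of active shell calcification in the uterus. The 3 non-layers were 35 to 60 weeks old and had no growing follicles in the ovary, so laying status and age cannot be told apart for every hen. In whole uterine tissue, a larger share of the cells that express a gene and more RNA per cell cannot be told apart either.

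Otopetrins are proton channels of the plasma membrane, which let protons pass into the cell when the outer side becomes acid. In the mouse, OTOP1 is the acid sensor of sour taste cells and is needed for otoconia, the calcium carbonate crystals of the inner ear. OTOP2 and OTOP3 also form proton channels when expressed in mammalian cells. In the hen uterus, or shell gland, shell is laid down as calcium carbonate from calcium and bicarbonate, a reaction that releases protons into the uterine fluid.

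In the authors' annotation of the Galgal 5.0 genome, OTOP2 (ENSGALG00000007791) spans 10645623 to 10650511 on the plus strand of chromosome 18. OTOP3 (ENSGALG00000028214) spans 10656715 to 10661393 on the same strand, with 6203 bases between the genes. Each has 1 annotated transcript, and the exons add up to 1734 bases for OTOP2 and 1668 bases for OTOP3. Both exon lengths are multiples of 3, as are those of 334 of the 616 genes in the authors' table and as a coding sequence alone would be. Reads from untranslated parts outside the model would not be counted in either gene. The authors' table carries a flag for confounded genes, without a definition in the sources used here, which is true for OTOP2, as for 114 of the 616 genes, and false for OTOP3. In RefSeq's annotation of the GRCg7b assembly, the gene order is FADS6, USH1G, OTOP2, OTOP3 and HID1, and the span of USH1G overlaps that of OTOP2. Whether reads of USH1G entered the OTOP2 count was not tested, since the USH1G identifier was not at hand. The counts of OTOP2 and OTOP3 were whole numbers in all 6 libraries, as were 91.6% of all values in the count table. As the gene counter is not known, whole counts cannot show whether reads were shared.

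The study designed a pair of primers for each otopetrin transcript and followed up both genes by quantitative PCR. The primers are shown here, 5′ to 3′, because they are the sequences of the members at hand. Whether each pair is specific to its gene was not checked. No result below rests on the primers.
OTOP2 forward: gagcaagcaattgcccaaaatg
OTOP2 reverse: cgtgagacgtggtatgagga
OTOP3 forward: ggagctctgttgctgtttct
OTOP3 reverse: ctgtgggtcacctttcacac

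OTOP2 was expressed far above its non-layer level in every layer. It received 2362, 3658 and 5501 reads in layers 1, 2 and 3, and 126, 102 and 57 reads in non-layers 1, 2 and 3. In RPKM, the reads of a gene scaled by its exon length and by the total of gene counts in the library, the layers were at 75.4, 126 and 156. The non-layers were at 4.92, 3.15 and 2.02 RPKM. The groups did not overlap, and the lowest layer, layer 1, was 15.3-fold above the highest non-layer, non-layer 1. Within a group the spread was small by comparison, with 2.07-fold between the highest and lowest layer and 2.44-fold between the highest and lowest non-layer.

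The level of OTOP2 also changed its place among all genes. In the layers, 94.2%, 96.7% and 97.2% of the 19152 genes had a lower RPKM than OTOP2 in libraries 1, 2 and 3. In the non-layers these shares were 47.3%, 43.0% and 38.1%. These shares include genes that were not detected. Counted from the highest, OTOP2 ranked 10095 of 15602, 10911 of 15632 and 11865 of 15685 detected genes in non-layers 1, 2 and 3. OTOP2 was thus among the more abundant transcripts of the laying uterus and in the lower part of the detected genes in the non-laying uterus.

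OTOP3 was a low transcript in all hens. It received 11, 50 and 22 reads in layers 1, 2 and 3, and 3, 4 and 2 reads in non-layers 1, 2 and 3. The layers were at 0.365, 1.79 and 0.649 RPKM, and the non-layers at 0.122, 0.128 and 0.0736 RPKM. Every layer lay above every non-layer here too, but by 2.84-fold between the lowest layer and the highest non-layer. The layers differed among themselves by 4.90-fold, with layer 2 highest and layer 1 lowest. In layers 1, 2 and 3, 29.95%, 41.4% and 34.5% of all genes had a lower RPKM than OTOP3, against 20.5% to 23.6% in the non-layers. Many of those lower genes were not detected. Among detected genes, OTOP3 ranked 13415 of 15463, 11225 of 15389 and 12536 of 15575 in layers 1, 2 and 3. In non-layers 1, 2 and 3 it ranked 14808 of 15602, 14633 of 15632 and 15233 of 15685.

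At this depth the OTOP3 values carry a large counting error. On the scale of counts per 1000000 assigned reads (CPM) without TMM factors, OTOP3 was at 0.609 in layer 1, with an exact 95% binomial interval of 0.304 to 1.09. Non-layer 1 was at 0.203 CPM, with an interval of 0.0419 to 0.594, so that layer 1 and non-layer 1 could not be set apart by counting error alone. Layer 2, at 2.99 CPM with an interval of 2.22 to 3.94, and layer 3, at 1.08 CPM with an interval of 0.678 to 1.64, lay above the intervals of all 3 non-layers. For OTOP2, the interval in layer 1 was 126 to 136 CPM and that in non-layer 1 was 7.11 to 10.2. Without molecular identifiers in the reads, such intervals hold the counting error and nothing else.

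**Figure D1:**
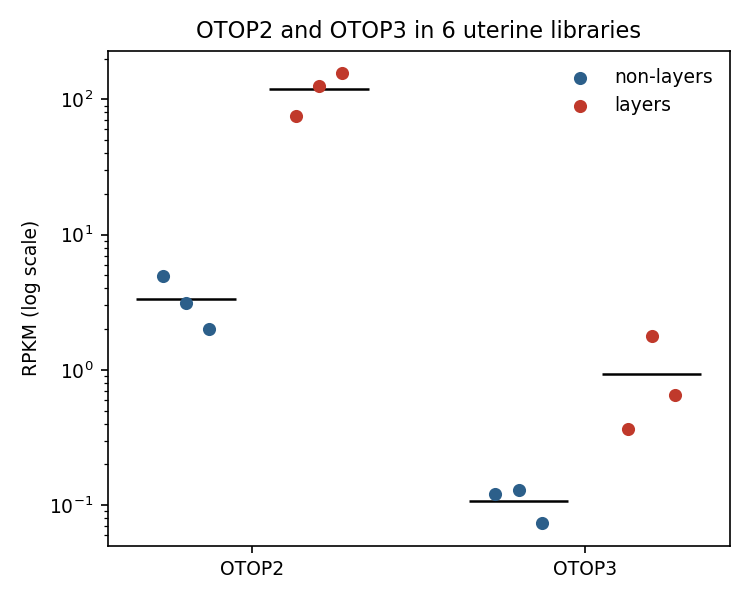
RPKM of OTOP2 and OTOP3 on a log scale in 3 non-layers (blue) and 3 layers (red), 1 point per hen in the order of the replicate numbers, with a line at the mean of each group. OTOP2 lies between 75.4 and 156 RPKM in layers and between 2.02 and 4.92 RPKM in non-layers, and the highest OTOP3 value is 1.79 RPKM, in layer 2.

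The groups were compared over all genes with edgeR's quasi-likelihood test, with adjustment over 13317 genes. A gene was called where it differed 2-fold or more and its adjusted p was below 0.05. In CPM with TMM factors, as used from here on, OTOP2 averaged 234 ± 86.3 in layers against 5.23 ± 2.36 in non-layers (SD, n = 3 each). The log2 fold change was 5.49 with a standard error of 0.47, worked out from the log2 fold change and the F statistic of the test. The gene was called up-regulated (adjusted p = 0.013 by edgeR), and the fitted difference equals 45.0-fold. It ranked 7 of 13317 by the size of its rise and 5 by its p.

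OTOP3 averaged 1.79 ± 1.49 CPM in layers against 0.162 ± 0.050 CPM in non-layers (SD, n = 3 each). Its log2 fold change was 3.40 with a standard error of 0.76, a fitted difference of 10.6-fold, which was not called (adjusted p = 0.070 by edgeR, unadjusted p = 0.0026). OTOP3 passed the filter on low counts only through the layers, where it is high. Among the 13317 genes it ranked 39 by the size of its rise and 500 by its p. The biological coefficient of variation fitted for OTOP3 was 0.554, against 0.343 for OTOP2 and a common value of 0.310.

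Thus 1 of the 2 otopetrins was called up-regulated, where 0.901% of all genes tested were, and both had every layer above every non-layer, as 12.1% of all genes tested did. Since the members were drawn from the authors' DEGs, these shares are given as a background only. In the plot of all genes tested, OTOP2 stands apart at a high level, and OTOP3 lies at the low end of expression.

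**Figure D2:**
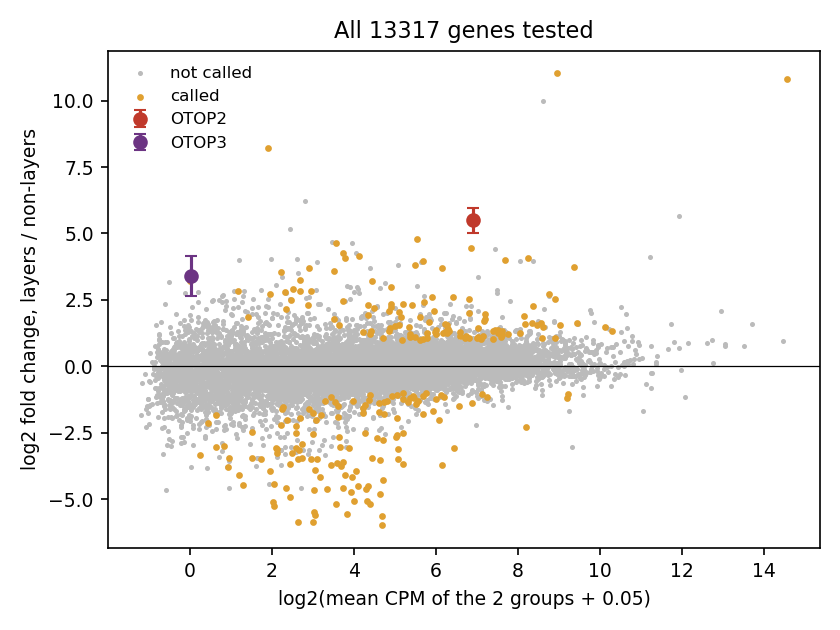
Log2 fold change of layers against non-layers for each of 13317 genes (y axis) against the log2 of the mean CPM of the groups (x axis), with called genes in orange and the otopetrins with their standard errors. OTOP2 is at 5.49 and OTOP3 at 3.40 on the y axis.

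The calls depended on single hens and on the tool. Without layer 2, non-layer 1 or non-layer 2, the adjusted p of OTOP2 by edgeR was 0.060, 0.080 and 0.089. Those fits called only 2, 0 and 1 of all genes tested, against 249 with all 6 libraries, so that calls were lost over all genes. The log2 fold change of OTOP2 stayed between 5.21 and 5.87 over the 6 fits that each left out 1 library. For OTOP3, the log2 fold change moved most without layer 2, to 2.50 (adjusted p = 0.14 by edgeR), while its adjusted p was highest without non-layer 1, at 0.25. OTOP3 was called in none of the 6 fits. DESeq2's Wald test called both genes, with an adjusted p of 2.6e-35 for OTOP2 and 0.0033 for OTOP3. That is the kind of test by which the authors chose them.

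**Figure D3:**
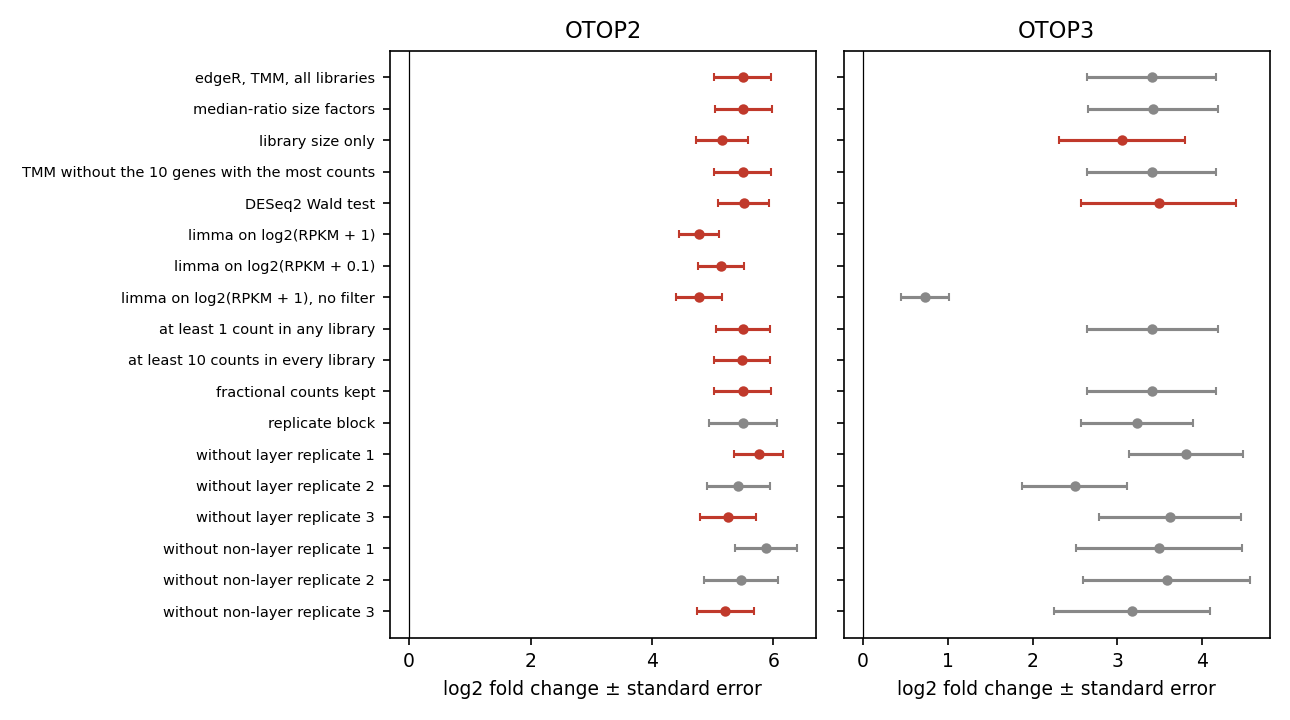
Log2 fold change of OTOP2 (left) and OTOP3 (right) with its standard error under each setting of the test, with red points where the adjusted p is under 0.05 and grey points where it is not. OTOP2 lies between 4.78 and 5.87 in every setting, OTOP3 between 0.74 and 3.81, and 3 settings hold no point for OTOP3 because it did not pass their filter. The 0.74 comes from limma on log2(RPKM + 1) without a filter. There the added 1 shrinks differences of a gene as low as OTOP3, so this value is not on the same footing as those from counts.

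Per length, OTOP2 exceeded OTOP3 in every library. The ratio of OTOP2 to OTOP3 in RPKM was 207, 70.4 and 241 in layers 1, 2 and 3. It was 40.4, 24.5 and 27.4 in non-layers 1, 2 and 3. OTOP2 was thus the prevailing otopetrin transcript of the pair in laying and non-laying hens alike, and the margin was wider in each layer than in each non-layer.

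The counting error of the ratio comes from the few OTOP3 reads. The exact 95% interval was 115 to 414 in layer 1, 53.3 to 95 in layer 2 and 159 to 384 in layer 3. It was 13.5 to 199 in non-layer 1, 9.29 to 91.8 in non-layer 2 and 7.25 to 232 in non-layer 3. The interval of layer 2 overlaps those of all 3 non-layers, and the intervals of layers 1 and 3 overlap those of non-layers 1 and 3 but not that of non-layer 2. On the log2 scale of the counts with 0.5 added, the ratio was 7.27 ± 0.95 in layers and 4.74 ± 0.38 in non-layers (SD, n = 3 each). The group means of this log2 ratio differed by 2.53 (two-sided exact permutation test, p = 0.10, the smallest p that 3 against 3 libraries allow). This is a mean of log2 ratios per library and not the gap between the log2 fold changes fitted by edgeR. The test over hens therefore cannot show at the usual threshold that the paralogues responded to a different degree.

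**Figure D4:**
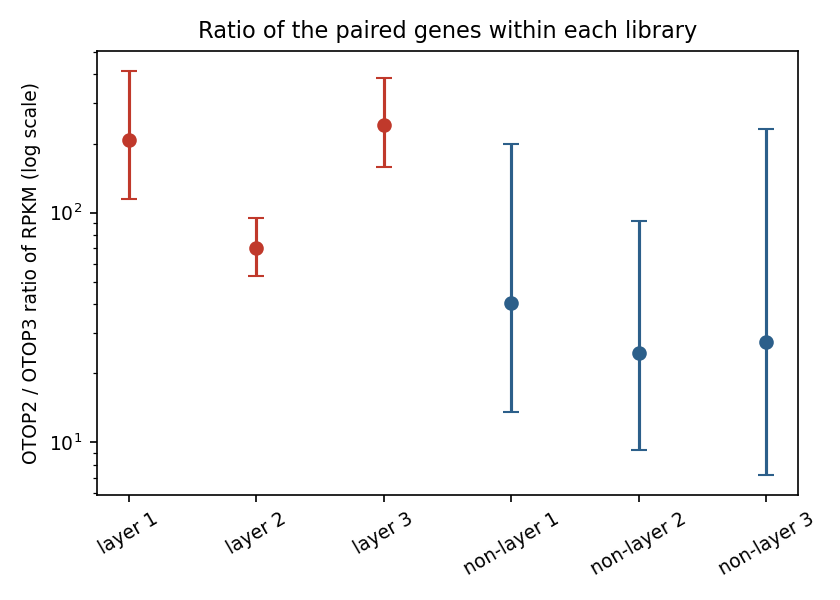
Ratio of OTOP2 to OTOP3 in RPKM on a log scale in each library, layers in red and non-layers in blue, with exact 95% binomial intervals that cover counting error only. The layers lie between 70.4 and 241 and the non-layers between 24.5 and 40.4, and the interval of each layer overlaps that of at least 1 non-layer.

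The order of the layers differed between the paralogues. OTOP2 was highest in layer 3 and OTOP3 in layer 2, and layer 1 was lowest for both. Among the non-layers, OTOP2 was highest in non-layer 1 and OTOP3, on 4 reads or fewer, in non-layer 2. The likeness of expression patterns was measured as the root mean square difference of the log2(CPM + 0.5) values, each gene centred on its own mean, over the 6 libraries. Between OTOP2 and OTOP3 it was 1.96, and OTOP3 ranked 81 of 513 named genes, all DEGs of the authors, by closeness to OTOP2. As the groups lie far apart, this measure mostly reflects the size of the difference between them.

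The 5 named genes closest to OTOP2 were SGK1 at 0.93, TSKU at 1.07, FGF1 at 1.09, PRKG2 at 1.12 and NEU4 at 1.13, where the median over 501 named genes was 3.35. The candidates were DEGs of the authors with a mean of at least 1 CPM. Their median thus includes genes selected for a change in the opposite direction, and genes outside the authors' DEGs were not compared. SGK1 is a hormone-regulated kinase that raises epithelial sodium transport, TSKU a secreted leucine-rich proteoglycan, FGF1 a growth factor, PRKG2 a membrane-bound kinase activated by cyclic GMP, and NEU4 a sialidase. SGK1 was at 718, 1575 and 1422 CPM in layers 1, 2 and 3, and at 110, 73.0 and 96.3 CPM in non-layers 1, 2 and 3. Its lowest layer was layer 1, as for OTOP2 and FGF1, whereas TSKU and PRKG2 were highest in layer 1 and NEU4 was lowest in layer 3. The log2 fold changes of these 5 genes ranged from 3.73 to 4.64 and were all smaller than that of OTOP2.

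Among the named genes closest to OTOP3 were B3GNT2 at 0.049, C12orf45 at 0.19, NABP1 at 0.21 and TNS4 at 0.22, with a median of 1.54 over 502 named genes, again DEGs of the authors. B3GNT2 makes N-acetyllactosamine chains of glycans, NABP1 binds single-stranded DNA and TNS4 is a tensin of focal adhesions. B3GNT2 was at 71.0, 223 and 96.6 CPM in layers 1, 2 and 3, and at 39.4, 40.1 and 34.4 CPM in non-layers 1, 2 and 3. As for OTOP3, layer 2 was the highest library and layer 1 the lowest layer. The added 0.5 CPM shrinks differences of a gene as low as OTOP3, so that its profile resembles those of genes with smaller fold changes, which were between 1.56 and 1.83 on the log2 scale and not called by edgeR. None of these 4 was among the 5 closest to OTOP2.

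Of the genes next to the pair, FADS6 was the other one with a name in the authors' table. It codes for a protein of the fatty acid desaturase family and lies on the minus strand from 10619736 to 10623524, with 22098 bases between its end and OTOP2. FADS6 had 60, 19 and 68 reads in layers 1, 2 and 3, and 9, 19 and 9 in non-layers 1, 2 and 3. In CPM the layers were at 3.56, 1.32 and 3.82 and the non-layers at 0.549, 0.937 and 0.469, so that layer 2, the highest library for OTOP3, was the lowest layer for FADS6. FADS6 had a log2 fold change of 2.14 with a standard error of 0.53, which missed the threshold (adjusted p = 0.089 by edgeR). USH1G, which codes for a scaffold protein of inner ear hair cells, and HID1 were not analysed here.

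Otopetrins move protons, so the genes that handle protons and bicarbonate were set beside them from a list of 65. Names at hand paired 5 of the 65 with an identifier, and these were again DEGs of the authors. By edgeR, 3 of the 5 were called up-regulated and 0 down-regulated, where 0.901% of all genes tested and 18.1% of the authors' named DEGs, from which the 5 come, were called up-regulated. The median log2 fold change was 1.35 over the 5 and 0.01 over all genes tested. Since the 5 had been selected as DEGs for a large difference, these medians do not compare like sets. Without layer 1, layer 2, non-layer 1 or non-layer 2, 0 of the 5 were called. Over all genes tested, these fits called 41 of 13533, 2 of 13602, 0 of 13519 and 1 of 13494. OTOP1 and the rest of the list were not analysed here.

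SLC9A2, a sodium-proton exchanger, was at 383, 321 and 257 RPKM in layers 1, 2 and 3, and at 140, 184 and 107 RPKM in non-layers 1, 2 and 3. SLC9A2 had a log2 fold change of 1.48 with a standard error of 0.27 (adjusted p = 0.047 by edgeR). SLC9A2 thus stood above OTOP2 in RPKM in all hens, while its fold change was smaller. CFTR, an anion channel that passes chloride and bicarbonate, was at 69.9, 62.6 and 103 RPKM in layers and at 31.6, 29.4 and 38.5 RPKM in non-layers 1, 2 and 3. CFTR had a log2 fold change of 1.59 with a standard error of 0.23 (adjusted p = 0.033 by edgeR). Its groups did not overlap, where 12.1% of all genes tested had every layer above every non-layer in CPM.

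ATP6V0D2, a subunit of the proton-pumping V-type ATPase, was at 167, 144 and 89.9 RPKM in layers and at 68.0, 58.7 and 71.2 RPKM in non-layers 1, 2 and 3. ATP6V0D2 had a log2 fold change of 1.35 with a standard error of 0.23 (adjusted p = 0.037 by edgeR). Its order among the layers was the reverse of that of OTOP2, as was the order of SLC9A2, TSKU and PRKG2. SLC4A9 and CA12, the remaining named genes of the list, had lower values in layers and low levels throughout. The anion exchanger family member SLC4A9 was at 0.392 ± 0.104 RPKM in layers and 2.79 ± 1.28 RPKM in non-layers (SD, n = 3 each), a log2 fold change of -2.51 that was not called (adjusted p = 0.051 by edgeR). CA12, a carbonic anhydrase of the cell surface, was at 0.292 ± 0.0826 and 2.31 ± 1.08 RPKM, a log2 fold change of -2.62 that was not called (adjusted p = 0.055 by edgeR). For both genes every layer lay below every non-layer. Both had been selected as DEGs of the authors, and the share of all genes tested with this order was not computed.

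**Figure D5:**
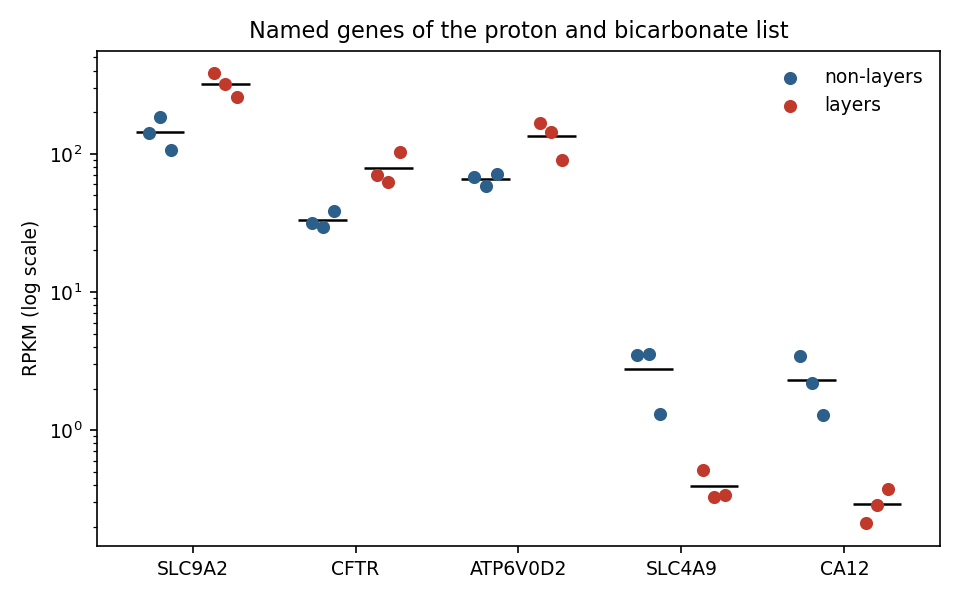
RPKM on a log scale of the 5 named genes of the proton and bicarbonate list in 3 non-layers (blue) and 3 layers (red), with a line at the mean of each group. SLC9A2, CFTR and ATP6V0D2 lie higher in every layer than in every non-layer, and SLC4A9 and CA12 lower. All 5 had been selected as DEGs of the authors. Of all genes tested, 12.1% had every layer above every non-layer in CPM, and the share with every layer below was not computed.

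The study placed the otopetrins among genes of calcium transport, and of a list of 41 calcium supply genes, 4 could be paired with an identifier. As DEGs of the authors, these genes had been selected for a large difference. The study also followed up each of these 4 genes, like OTOP2 and OTOP3, as a candidate by quantitative PCR. The list was chosen with earlier results of these data known, so its genes may have been selected for direction too. The shared direction of these genes is therefore not independent evidence. Their log2 fold changes ran from 1.47 to 2.64 with a median of 2.15, where the median of all genes tested was 0.01, and 1 of the 4 was called up-regulated by edgeR, against 0.901% of all genes tested and 18.1% of the authors' named DEGs. This was the plasma membrane calcium pump ATP2B2, at 149, 256 and 133 RPKM in layers 1, 2 and 3 and at 40.5, 50.9 and 26.4 RPKM in non-layers 1, 2 and 3. Without layer 1, layer 2, non-layer 1 or non-layer 2, 0 of the 4 were called. Over all genes tested, these fits called 41, 2, 0 and 1 genes. OTOP2, at 75.4, 126 and 156 RPKM in layers 1, 2 and 3, was below the pump in layers 1 and 2 and above it in layer 3. In each non-layer OTOP2 was below the pump, at 2.02 to 4.92 RPKM.

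Other features of the libraries moved with laying status as well. The 10 most abundant genes took 15.3% to 16.2% of the gene counts in layers and 7.22% to 8.42% in non-layers. The TMM factors were 0.859 to 0.934 in layers and 1.09 to 1.18 in non-layers. The summed gene counts overlapped between the groups, at 16749841 to 20333092 per library in layers and 14756652 to 18676916 in non-layers. Of 24 markers of the shell gland 7 were named, and their summed level was 73679 to 85361 CPM in layers and 5574 to 10201 CPM in non-layers, with ovocalyxin-32 (RARRES1), a shell matrix protein, at 4540 CPM or more in every hen. Most of the sum in layers came from the shell matrix protein MEPE, averaging 48660 ± 3623 CPM there against 26.7 ± 13.0 in non-layers (SD, n = 3 each). Of these 7, 6 had higher and 1 had lower values in layers, the latter being the progesterone receptor gene PGR, which was called down-regulated at a log2 fold change of -1.18 (adjusted p = 0.033 by edgeR). Of 20 markers of ciliated cells 2 were named, with sums of 38.9 to 72.6 CPM in layers and 131 to 144 CPM in non-layers, and of 16 immune markers 2, with sums of 6.74 to 12 and 19.5 to 39.1 CPM. Of 12 egg white markers 2 were named, at 106 to 330 CPM in layers and 22.8 to 44.8 CPM in non-layers. The lysozyme gene LYZ is 1 of them and also 1 of the 7 named shell gland markers, so these sums share a gene. Of 11 red blood cell markers 1 was named, at 58.3 to 387 CPM in layers and 44.1 to 54.3 CPM in non-layers. Of 12 smooth muscle markers 0 were named. The named markers were all DEGs of the authors, selected to differ between these same groups. Their sums thus cannot show a change in the share of a cell type. No named marker was at 0 in any library. The part of these differences in the otopetrin results was not tested.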

How the data were processed

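Uteri of 3 layers and 3 non-layers were measured by poly-A RNA-seq, with 1 library per hen. Reads were trimmed by the authors with Prinseq and mapped in Array Studio on the Galgal 5.0 genome. For each Ensembl gene the authors deposited an estimated count, and 91.6% of these values were whole numbers up to floating-point error (tolerance 1e-09). The authors also deposited RPKM values, scaled by exon length and by the total of the gene counts. The gene counter, strand setting and annotation release are not given in the sources used here. The authors' table of DEGs supplied gene names, and its coordinates and exon lengths, deposited with them, were used as given. Its fold changes, p-values, q-values and group means come from the authors' own comparison and were not used.

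Counts were rounded and tested with edgeR 4.0.16 (filterByExpr, TMM, quasi-likelihood F-test) in R 4.3.3, with Benjamini-Hochberg adjustment over 13317 genes. The code was tested on simulated counts with the common coefficient of variation for every gene and no change in low-count genes. That test does not bear on a gene as low as OTOP3. Library totals ran from 14756652 to 20333092, and OTOP3 rested on 2 to 50 reads per library. Alternatives were other scalings, count filters, DESeq2 1.42.0, limma 3.58.1 on log2(RPKM + 1) and log2(RPKM + 0.1), a replicate block and leaving out each library. Intervals used scipy 1.17.1, and exact permutation tests were run in R 4.3.3. No 2 libraries of a group agreed within counting noise. No gene of RefSeq's table carried an Ensembl identifier, so genes outside the authors' named DEGs could not be paired with a symbol. The members and the gene lists were chosen with earlier results of these data known. Genes named are the members, the 5 named genes closest to each in pattern, their neighbours and members of the lists, except 1 gene that is not reported here.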

Additional observations from a re-analysis of the deposited data

How the results depend on the processing

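The log2 fold change of OTOP2 was above 0 in all 17 alternatives and that of OTOP3 in all 14 that gave one. OTOP3 did not pass the filters of limma on log2(RPKM + 1) and log2(RPKM + 0.1) or of 10 counts in every library. Leaving out each library in turn gave 5.21 to 5.87 for OTOP2, 2.50 to 3.81 for OTOP3, 0 to 274 DEGs, 0 to 3 called genes of the proton and bicarbonate list and 0 to 1 of the calcium supply list. By edgeR, leaving out non-layer 1 gave 0 DEGs, non-layer 2 gave 1, layer 2 gave 2 and layer 1 gave 41, where all 6 libraries gave 249 by edgeR and 928 by DESeq2, with 2702 genes at an unadjusted p under 0.05 by edgeR. With library size alone, the genes tested had a median log2 fold change of -0.33, against 0.01 with TMM, and 781 DEGs, 103 of them up, were called against 249, 120 of them up. OTOP3 was then called at 3.05 (adjusted p = 0.048 by edgeR). All 5 named genes of the proton and bicarbonate list were called too. That count covers both directions and includes SLC4A9 and CA12, which were lower in layers. DESeq2 called 928 of all 19152 genes. Among them were OTOP3 at 3.49, the same 5 genes of the proton and bicarbonate list and 4 of the calcium supply list. These genes were at hand only because the authors' own DESeq2 run had called them on the same libraries. Their calls by DESeq2 are therefore not independent evidence. limma called 604 DEGs on log2(RPKM + 1), 662 on log2(RPKM + 0.1) and 160 without a filter, the last with 0 genes in either list. The cause of these shifts was not tested. Same-numbered libraries had correlations of -0.17, 0.11 and -0.072 in their deviations from the group means, so the numbers were not taken to pair hens. With the replicate number as a block, OTOP2 was at 5.50 (adjusted p = 0.056 by edgeR), with 21 DEGs and 0 called genes of the proton and bicarbonate list. The difference between the groups in the log2 ratio of the otopetrins stayed between 2.19 and 3.07 over its 9 alternatives, none of which can reach p under 0.05. With 2 to 4 OTOP3 reads in each non-layer, depth limits the level of OTOP3 and the ratio.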
